A study of Ovis aries with 4 samples.

Results

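TAC1, PENK, PDYN, SST, NPY and CORT encode the precursors of 6 groups of striatal neuropeptides, and their transcripts were followed here in sheep striatum. They were taken by symbol from the gene lists of the deposited matrices, in which each symbol named 1 of 26478 listed genes, under the same identifier in all libraries (TAC1 ENSOARG00020000198, PENK ENSOARG00020025573, PDYN ENSOARG00020008816, SST ENSOARG00020000243, NPY ENSOARG00020000795 and CORT ENSOARG00020015142). The study compared 2 ways of preparing frozen striatum, a deep forebrain region, for droplet-based single-cell RNA sequencing: whole cells freed with the protease papain, and nuclei freed by homogenisation in a detergent buffer. Each preparation had 2 libraries, and each library pooled 2 sheep aged 5 years, with no genotype or treatment named. Replicate 1 of both preparations came from sheep 1 and 2, and replicate 2 from sheep 3 and 4 by the sample titles, although in the protocol text the second suspension of cells is from animals 2 and 3. Since all libraries were made from frozen tissue, no fresh tissue stands beside them.

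Neuropeptides are cut from longer precursor proteins, stored in dense-core vesicles and released to act on G protein-coupled receptors. In the striatum of well-studied mammals, spiny projection neurons make 3 of these precursors: TAC1, which gives substance P and neurokinin A, and PDYN, which gives the dynorphins, belong to neurons with D1 dopamine receptors, while PENK, which gives the enkephalins, belongs to neurons with D2 receptors. The other members mark sparse interneurons that also carry nitric oxide synthase, in which somatostatin (from SST), neuropeptide Y (from NPY) and the somatostatin relative cortistatin (from CORT) are made together.

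The 2 nuclei libraries held 70473292 and 51102420 unique molecular identifiers (UMIs, 1 per captured transcript), of which mitochondrial genes took 0.779% and 0.776%. The 2 whole-cell libraries held 1115058 and 19241918 UMIs, of which mitochondrial genes took 88.7% and 86.9%. Barcodes with at least 200 detected genes numbered 68 and 269 in whole cells and 8810 and 8720 in nuclei, so cell classes could be read in nuclei alone. Levels in whole libraries are therefore given as CPM, the UMI count scaled to a common total (counts-per-million) of non-mitochondrial UMIs, which puts whole cells on a base of 125974 and 2512837 UMIs. Spiny neuron markers were present in every library, but at unequal levels: 15 named markers summed to 802 and 2452 CPM in whole cells and to 19394 and 15866 CPM in nuclei.

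Members of the spiny neuron type come first. TAC1 gave 9 and 974 UMIs in the whole-cell libraries and 8698 and 4253 in the nuclei libraries, or 71.4 and 388 CPM against 124 and 83.9 CPM. The whole-cell values lay on both sides of the nuclei values, so the groups overlapped. PENK gave 6, 456, 1451 and 777 UMIs in the same order, or 47.6 and 181 CPM in whole cells and 20.8 and 15.3 CPM in nuclei. PDYN, at 0, 42, 58 and 102 UMIs, had the fewest counts of the 6. Its 0 in whole cells replicate 1 allows up to 23.8 CPM at 3 counts, above the 16.7 CPM of whole cells replicate 2 and the 0.829 and 2.01 CPM of nuclei. For PENK both whole-cell values were above both nuclei values, although the interval of whole cells replicate 1 (17.5 to 104 CPM, exact 95% Poisson) takes in that of nuclei replicate 1, while for PDYN the first whole-cell library was too shallow to be placed.

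Among members of the interneuron type, SST gave 29, 920, 6249 and 5131 UMIs, or 230.2 and 366 CPM in whole cells and 89.4 and 101 CPM in nuclei. NPY gave 15, 262, 3175 and 4011 UMIs, or 119 and 104 CPM in whole cells and 45.4 and 79.1 CPM in nuclei. CORT gave 2, 49, 416 and 454 UMIs, or 15.9 and 19.5 CPM in whole cells and 5.95 and 8.95 CPM in nuclei. On this scale all 3 were higher in both whole-cell libraries than in both nuclei libraries. The CORT value of whole cells replicate 1 rests on 2 UMIs, however, with an exact 95% Poisson interval of 1.92 to 57.4 CPM. The NPY value of that library, on 15 UMIs, has an interval of 66.6 to 196 CPM. That takes in the NPY interval of nuclei replicate 2 (76.7 to 81.6 CPM). Such intervals cover counting error only. The list of 17 interneuron markers moved the other way, from 286 and 278 CPM in whole cells to 3654 and 4008 CPM in nuclei, with 11 and 17 of them detected in whole cells and all in nuclei, and its part in these results was not tested. In sums over a library, fewer cells of a type and less RNA per cell cannot be told apart.

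**Figure D1:**
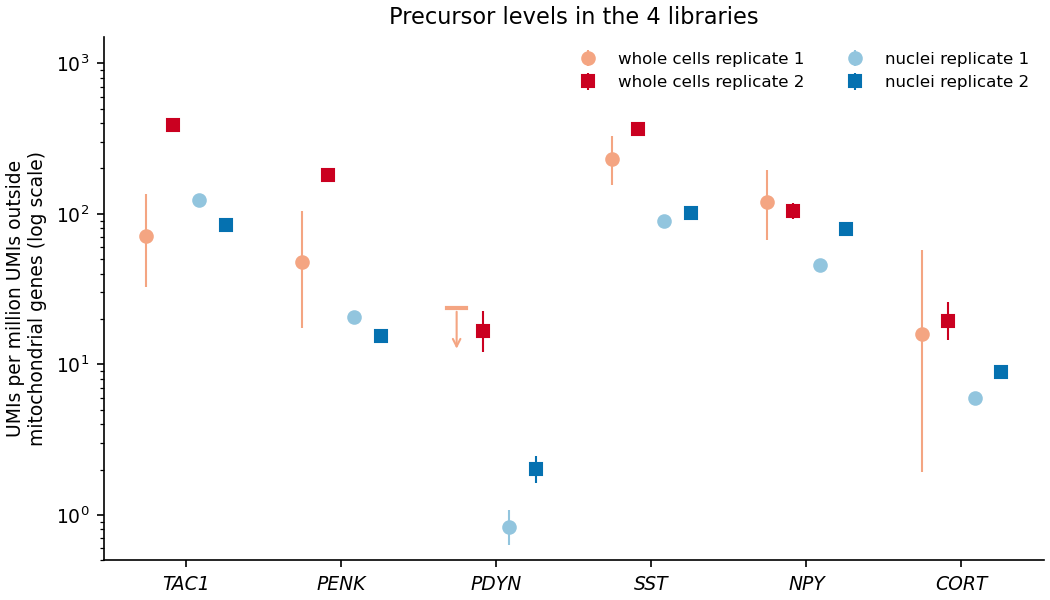
Level of each precursor in the 4 libraries, as CPM of non-mitochondrial UMIs on a log axis with exact 95% Poisson intervals and, for PDYN in whole cells replicate 1, the limit of 23.8 CPM that 0 counts allow. TAC1 is the gene whose whole-cell libraries lie on both sides of the nuclei libraries, while the interval of PENK in whole cells replicate 1, on 6 UMIs, spans 17.5 to 104 CPM and takes in nuclei replicate 1.

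The design asks how nuclei differ from whole cells, and this was tested on UMI sums per library with edgeR's quasi-likelihood test, scaled with TMM (trimmed mean of M-values). On that scale 5 of the 6 precursors were called higher in whole cells (adjusted p under 0.05), where 22.4% of the 15781 tested genes were, but scaled by library size alone, mitochondrial UMIs included, none was higher in whole cells (3.16% of all tested genes were) and TAC1, SST, NPY and CORT were called higher in nuclei (79.4% were). Of all tested genes 52.2% were called in either direction and 29.8% were higher in nuclei, so a call alone sets no gene apart here. The median gene stood at a log2 fold change (nuclei over whole cells) of 0.61 with TMM and at 3.66 with library size alone, a shift in the scale that all genes share. Measured from that median, every precursor was lower in nuclei on both scales and under all settings that gave a value.

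The gap was widest for the opioid precursors. PDYN had a log2 fold change of -3.48 (SE 0.64, edgeR adjusted p = 3.29e-05), which is -4.08 from the median gene, with library sums of 0 and 42 UMIs on the whole-cell side. PENK had -2.97 (SE 0.50, adjusted p = 7.60e-06), or -3.57 from the median. These are the 2 calls that held when the animal pool was a block (14.2% of all tested genes were then called higher in whole cells and 20.4% higher in nuclei), at -2.98 (adjusted p = 0.00824) for PDYN and -2.55 (adjusted p = 0.0119) for PENK. Without whole cells replicate 2, PENK was at -0.99 (adjusted p = 0.321), and PDYN had no whole-cell count left.

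SST had a log2 fold change of -1.71 (SE 0.49, edgeR adjusted p = 0.00416), CORT of -1.48 (SE 0.48, adjusted p = 0.0104) and TAC1 of -1.37 (SE 0.56, adjusted p = 0.0416). NPY, at -0.84 (SE 0.43, adjusted p = 0.104), missed the threshold. Blocking the animal pool ended 3 of these calls, at -1.55 for SST (adjusted p = 0.0944), -1.28 for CORT (adjusted p = 0.220) and -0.82 for TAC1 (adjusted p = 0.469). With barcodes of at least 200 genes alone, SST was at -0.30 (adjusted p = 0.509) and TAC1 at -0.53 (adjusted p = 0.204), and DESeq2 did not call TAC1 (adjusted p = 0.242) or CORT (adjusted p = 0.145). With a library left out, the remaining library of its preparation is assumed to vary like the other preparation. Without whole cells replicate 2, SST kept its call at -0.89, CORT lost it at -0.72, and TAC1 turned to 0.95 without a call. The CORT and TAC1 values there rest on 2 and 9 UMIs in whole cells. TAC1 and CORT also lost their calls without nuclei replicate 2 (-1.13 and -1.81) and CORT without nuclei replicate 1 (-1.42), while NPY passed the threshold at -0.86 without whole cells replicate 1, with a fold change that hardly moved. Measured from the median gene, SST was at -2.32, CORT at -2.09, TAC1 at -1.97 and NPY at -1.44. In rank among all tested genes, the 6 ran from the 5.54th percentile (PDYN) to the 28.7th (NPY).

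**Figure D2:**
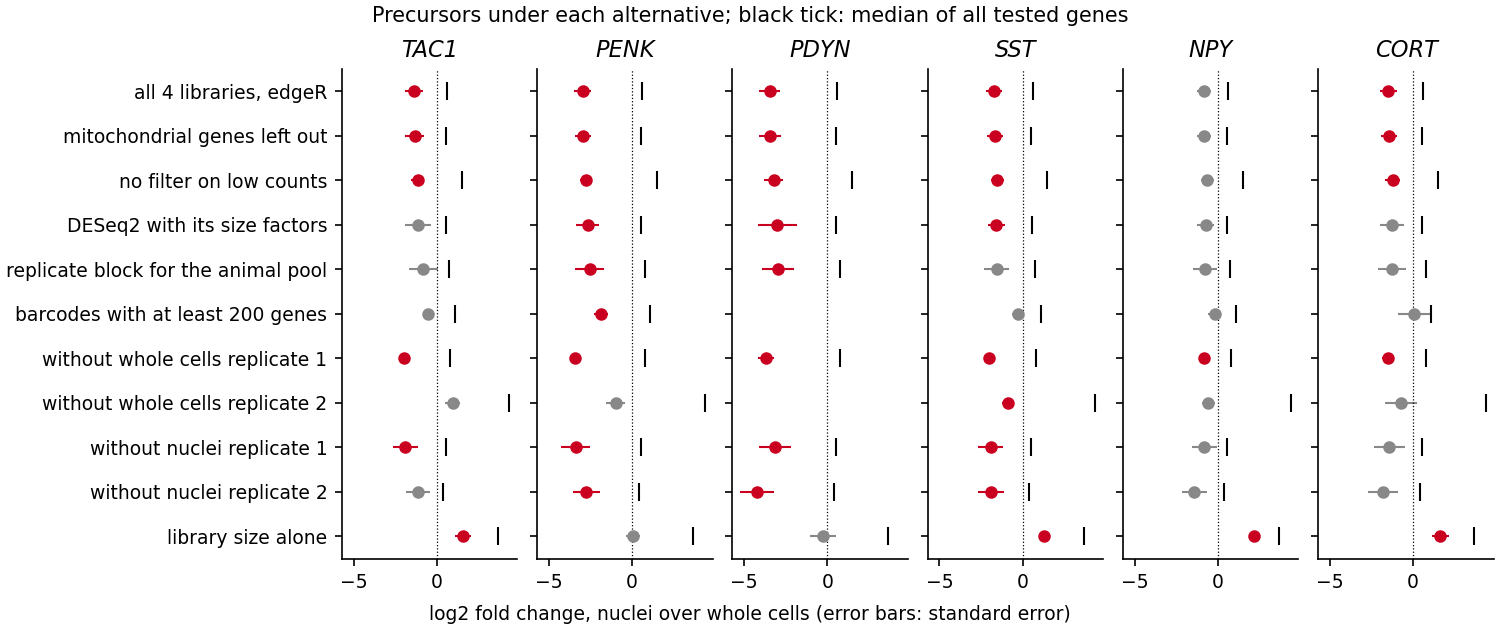
Log2 fold change of each precursor, nuclei over whole cells, with its standard error under each setting (DESeq2 where named, edgeR otherwise; red where adjusted p was under 0.05), and a black tick for the median of all tested genes. TAC1, PENK, SST, NPY and CORT turn to above 0 with library size alone. TAC1 also does so without whole cells replicate 2 (9 whole-cell UMIs) and CORT with barcodes of at least 200 genes (3 whole-cell UMIs). Each point lies left of its median tick.

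Of the 5 genes with a value in both pools (PDYN had no UMI in whole cells replicate 1), TAC1 differed most between them. In the pool of sheep 1 and 2, TAC1 was higher in nuclei by 1.26 on the log2 scale after TMM, and in the pool of sheep 3 and 4 it was lower by a value of -2.50. PENK was lower in nuclei in both pools, at -0.73 and -3.86. The interneuron precursors varied less: SST was at -0.90 and -2.15, NPY at -0.93 and -0.69, and CORT at -0.95 and -1.41. The first-pool values rest on few counts. In whole cells replicate 1 TAC1, PENK, SST, NPY and CORT had 9, 6, 29, 15 and 2 UMIs. With 1 library of each preparation per pool, these differences between pools were not tested. An exact permutation test of 2 libraries against 2 cannot go below p = 0.33, and all p-values measure only the spread between these pooled libraries.

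Nuclei classes were built by clustering 15721 nuclei (8004 and 7717) with the 6 precursors left out of the genes used, and named from other marker genes. Spiny neuron-like nuclei numbered 1157 in replicate 1 and 1140 in replicate 2. A cluster led by NOS1 and CHODL, called NOS1 interneuron-like here, held 21 and 30 nuclei. Glial classes served as background, since RNA freed from broken cells can put stray UMIs in any droplet: oligodendrocyte-like (3686 and 3748 nuclei), oligodendrocyte precursor-like (601 and 725), astrocyte-like (671 and 593) and microglia-like (750 and 754). Class levels are a description, with no test, because cells of a library are not replicates.

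TAC1 was at 5.14 and 2.36 UMIs per spiny neuron-like nucleus in replicates 1 and 2, against 0.113 to 0.221 in the 4 glial classes of both libraries. Spiny neuron-like nuclei were 14.5% and 14.8% of all nuclei and held 76.1% and 72.3% of the TAC1 UMIs, where they held 63.3% and 55.3% of the UMIs of all genes. They were also the deepest nuclei, with median totals of 31998 and 17720.5 UMIs against 2182.5 and 1575 in oligodendrocyte-like nuclei. In CPM of the class the gap was thus smaller: 146 and 106 CPM in spiny neuron-like nuclei, 76.1 and 59.1 CPM in oligodendrocyte-like nuclei and 124 and 79.6 CPM in microglia-like nuclei. Among the spiny neuron-like and the 4 glial classes TAC1 was highest in the first on both scales, but in CPM by a small margin over microglia-like nuclei.

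A UMI of TAC1 was found in 681 of 1157 (58.9%, exact 95% binomial interval 56.0 to 61.7) and 681 of 1140 (59.7%, 56.8 to 62.6) spiny neuron-like nuclei, and in 16.3% and 9.77% of oligodendrocyte-like nuclei. With every nucleus thinned to 1000 UMIs, shares were 13.0% and 11.1% in spiny neuron-like nuclei, 8.33% and 5.39% in oligodendrocyte-like nuclei and 10.9% and 7.31% in microglia-like nuclei. Thinning left out 169 and 595 oligodendrocyte-like and 63 and 152 microglia-like nuclei, and no spiny neuron-like nucleus. TAC1 was concentrated in some of the nuclei: 225 spiny neuron-like nuclei of replicate 1 and 45 of replicate 2 held at least 10 UMIs, with maxima of 131 and 20. The spiny neuron-like nuclei of replicate 1 were also deeper, so these counts are not at 1 depth.

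PENK was at 0.924 and 0.492 UMIs per spiny neuron-like nucleus, against 0.0139 to 0.0283 in the glial classes. Those nuclei held 82.6% and 81.1% of the PENK UMIs. A UMI was found in 389 (33.6%) and 277 (24.3%) of them, and in 2.55% and 1.36% of oligodendrocyte-like nuclei. At 1000 UMIs the shares were 3.20% and 2.98% in spiny neuron-like nuclei and 0.430% to 2.04% over the glial classes. The PENK share was thus above that of every glial class at equal depth in both libraries, but in replicate 1 its interval (2.26 to 4.38) overlapped those of microglia-like (1.12 to 3.40) and astrocyte-like nuclei (0.642 to 2.64), and in replicate 2 (2.07 to 4.14) that of microglia-like nuclei (0.469 to 2.38).

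PDYN was at 0.0277 and 0.0535 UMIs per spiny neuron-like nucleus and at 0.00217 and 0.00160 per oligodendrocyte-like nucleus. Only 27 (2.33%) and 53 (4.65%) spiny neuron-like nuclei held a PDYN UMI. The class held 61.5% and 67.8% of the gene's UMIs, against 63.3% and 55.3% of the UMIs of all genes: near in replicate 1 and above in replicate 2. In CPM of the class, PDYN was at 0.785 and 2.40 in spiny neuron-like nuclei, 0.843 and 0.837 in oligodendrocyte-like nuclei and 0 and 3.42 in microglia-like nuclei. In replicate 2 the spiny neuron-like interval (1.84 to 3.09) lay above the oligodendrocyte-like one (0.307 to 1.82) and within the microglia-like one (0.933 to 8.76). At 1000 UMIs per nucleus the shares were 0.173% and 0.0877% in spiny neuron-like nuclei, 0.114% and 0.159% in oligodendrocyte-like nuclei and 0% (upper bound 0.536%) and 0.664% in microglia-like nuclei. Once depth was taken into account, PDYN could thus not be told from the glial level in these shares. The level of 0.100 in NOS1 interneuron-like nuclei of replicate 2 was higher, but it rests on 3 UMIs in 30 nuclei, and replicate 1 had none in 21. All 27 of these nuclei in replicate 1 and 46 of 53 in replicate 2 also held TAC1, the precursor that shares the D1 neurons, where TAC1 was found in 57.9% and 58.4% of spiny neuron-like nuclei without PDYN.

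SST was at 148 and 95.9 UMIs per NOS1 interneuron-like nucleus, against 0.355 and 0.213 in spiny neuron-like nuclei and 0.169 to 0.301 in the glial classes. The 21 and 30 NOS1 interneuron-like nuclei were 0.262% and 0.389% of all nuclei and held 54.7% and 63.2% of the SST UMIs. The rest of the SST UMIs was spread thinly: 1493 of the 1853 nuclei with SST in replicate 1, and 1053 of 1254 in replicate 2, held 1 UMI. In spiny neuron-like nuclei the share with SST was 28.2% and 18.1%, and it was 1.21% and 1.40% at 1000 UMIs, below the 10.8% and 8.31% of oligodendrocyte-like nuclei. Per nucleus SST was above every glial class of the same library and at equal depth below, so the order depended on the scale.

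NPY was at 91.1 and 87.1 UMIs per NOS1 interneuron-like nucleus, against 0.0951 and 0.124 in spiny neuron-like nuclei and 0.0822 to 0.116 in the glial classes. NOS1 interneuron-like nuclei held 67.5% and 73.9% of its UMIs. CORT was at 9.57 and 9.43 UMIs per NOS1 interneuron-like nucleus, against 0.0320 and 0.0175 in spiny neuron-like nuclei and 0.00966 to 0.0236 in the glial classes. These nuclei held 54.2% and 68.9% of its UMIs. For these 2 genes the level per NOS1 interneuron-like nucleus differed little between the libraries, while SST was higher in replicate 1.

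**Figure D3:**
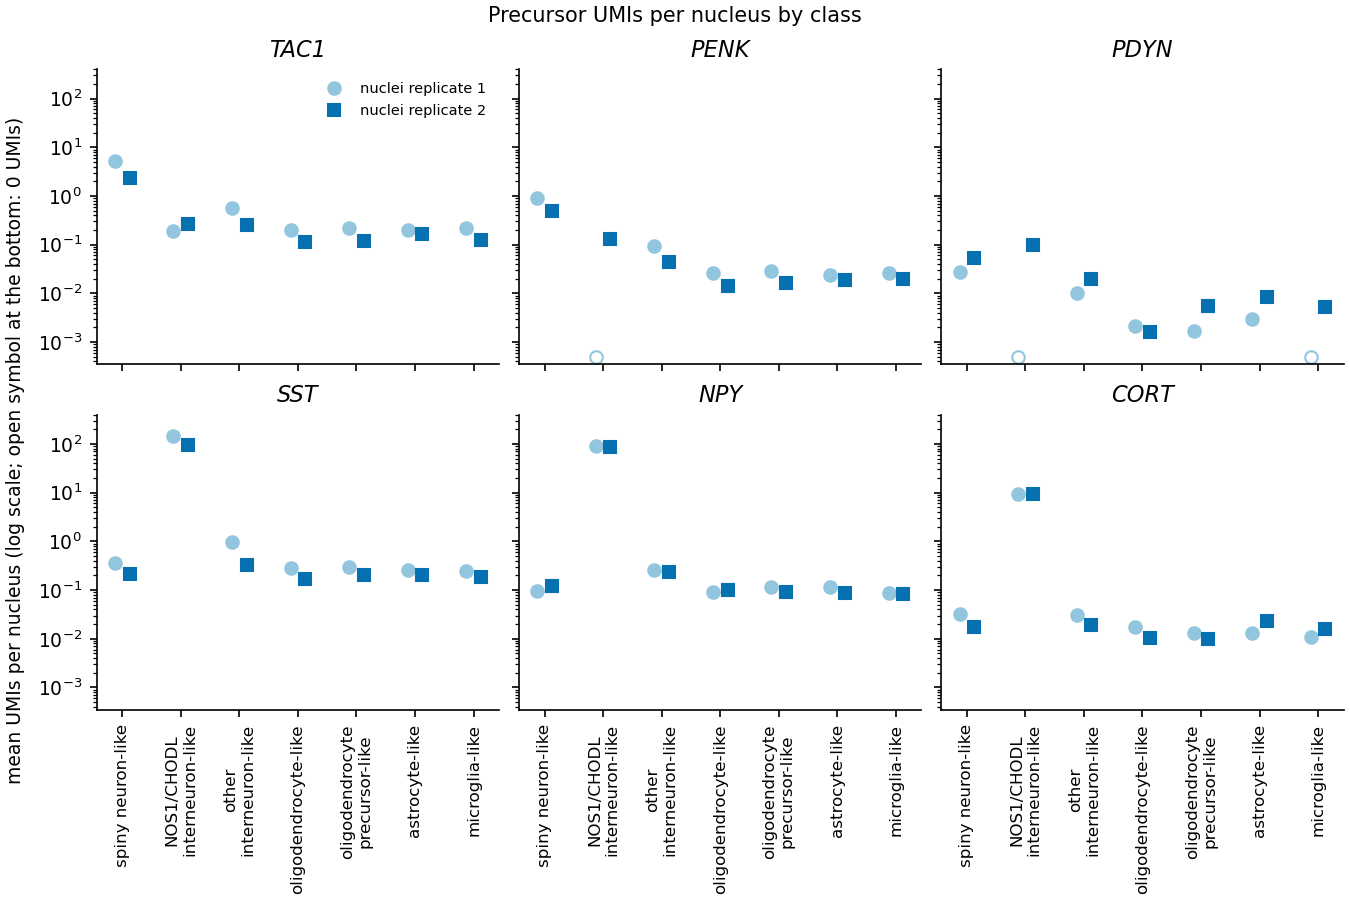
Mean UMIs of each precursor per nucleus in 7 classes of nuclei, on a log axis, with 1 point for each nuclei library and an open symbol at the bottom for 0 UMIs. SST, NPY and CORT are high in NOS1 interneuron-like nuclei, and TAC1 and PENK in spiny neuron-like nuclei, over a low level that the glial classes share, while the highest PDYN point, NOS1 interneuron-like nuclei of replicate 2, rests on 3 UMIs.

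The ratio of TAC1 to SST, which does not depend on depth, set the spiny neuron-like and NOS1 interneuron-like nuclei apart from the glial classes. TAC1 UMIs per SST UMI were 0.591 to 0.888 in the 4 glial classes of the 2 libraries, 14.5 and 11.1 in spiny neuron-like nuclei and 0.00129 and 0.00278 in NOS1 interneuron-like nuclei. In the glial classes this ratio stayed within a narrow band, and the part of free RNA in it was not tested. The other interneuron-like cluster, with KIT, PTHLH, PVALB and LHX6, had 97 and 155 nuclei and ratios of 0.596 and 0.800, within the glial band. SST per NPY was 2.18 to 3.12 in the glial classes of replicate 1 and 1.69 to 2.35 in those of replicate 2. In spiny neuron-like nuclei it was 3.74 and 1.72, above the glial range in replicate 1 and within it in replicate 2. In NOS1 interneuron-like nuclei it was 1.62 and 1.10, below every glial class of the same library. The other interneuron-like cluster showed 0.577 and 0.258 TAC1 UMIs per nucleus and 26.7 and 10.6 TAC1 CPM, below the oligodendrocyte-like level in CPM. In replicate 1, 31 of its 56 TAC1 UMIs were in 1 nucleus and 37 of its 94 SST UMIs in 1 nucleus, so its values there rest on few nuclei.

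Within the NOS1 interneuron-like cluster the 3 interneuron precursors occurred together. SST was found in every one of the 21 and 30 nuclei, with a median of 125 UMIs (range 7 to 422) in replicate 1 and 75.5 (3 to 275) in replicate 2. NPY had medians of 77 (5 to 196) and 74 (8 to 263). CORT had medians of 5 (0 to 37) and 7.5 (0 to 39) and was found in 17 of 21 and 28 of 30 nuclei. All 3 were present in 17 and 28 nuclei, so each nucleus that held CORT held the other two. SST UMIs per NPY UMI were 1.62 in replicate 1 and 1.10 in replicate 2. Spiny neuron precursors were nearly absent: TAC1, PENK and PDYN had 4, 0 and 0 UMIs in all nuclei of replicate 1 and 8, 4 and 3 in replicate 2. None of these 3 was detected in 17 of 21 and 20 of 30 nuclei.

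**Figure D4:**
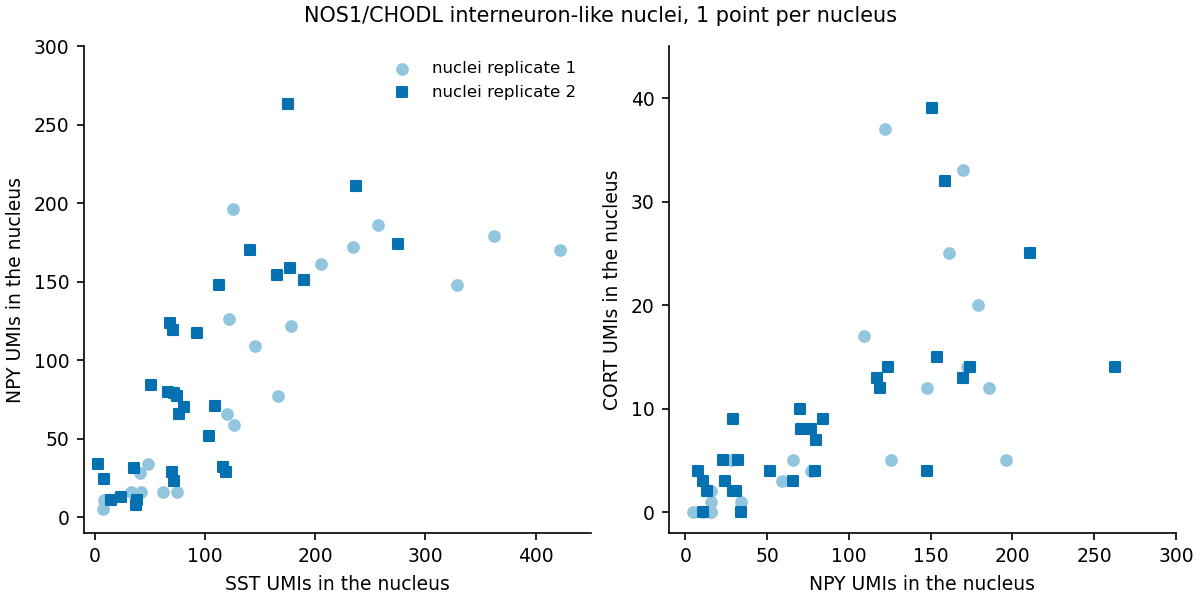
UMIs of NPY against SST and of CORT against NPY in each NOS1 interneuron-like nucleus, 21 of replicate 1 and 30 of replicate 2. All nuclei hold SST and NPY, over a range from 3 to 422 and 5 to 263 UMIs, and 17 and 28 hold CORT.

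Over all nuclei the same pairing was seen without the clusters. CORT was found in 6.93% (interval 5.10 to 9.17) of replicate 1 nuclei with NPY and in 1.65% of those without, and in 6.57% against 1.25% in replicate 2, ratios of 4.21 and 5.25. NPY was found in 10.96% and 12.04% of nuclei with SST and in 7.25% and 8.26% of those without. The ratios for SST with NPY were 1.51 and 1.46, and they were 2.72 and 3.80 after thinning to 1000 UMIs. PDYN was found in 1.86% and 3.51% of nuclei with TAC1 and in 0.180% and 0.493% of those without, ratios of 10.4 and 7.12 that were 9.98 and 2.37 after thinning, where 5 and 2 nuclei held both. TAC1 and PENK, by contrast, had ratios of 1.15 and 1.45, which became 0.597 and 0.710 after thinning. Over all nuclei the direction for that pair thus turned once nuclei were compared at 1 depth.

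Inside the spiny neuron-like class, TAC1 and PENK were found apart. PENK was found in 122 of 681 (17.9%) nuclei with TAC1 and in 56.1% of those without in replicate 1, and in 70 of 681 (10.3%) against 45.1% in replicate 2. Counting a gene as present only from 2 UMIs, the shares were 4.49% against 31.4% and 2.14% against 18.6%. From 3 UMIs, 8 of 475 (1.68%) and 3 of 412 (0.728%) TAC1 nuclei held PENK, against 15.98% and 7.28% of the others. With spiny neuron-like nuclei thinned to 5000 UMIs, which left out 8 and 50 shallower nuclei, PENK was in 2.76% and 2.00% of nuclei with TAC1 and in 13.3% and 14.8% of those without.

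Markers of the 2 spiny neuron types divided the precursors. DRD2 is the D2 dopamine receptor gene, and EBF1 is a transcription factor of D1 neurons that stood in for the D1 receptor, which was not analysed here. Of nuclei with DRD2 and no EBF1 (354 and 290), TAC1 was found in 24.9% and 24.1%, PENK in 56.8% and 50.7% and PDYN in 0.282% and 0.345%. Of nuclei with EBF1 and no DRD2 (446 and 483), TAC1 was found in 97.3% and 90.7%, PENK in 6.73% and 2.28% and PDYN in 4.93% and 7.25%. The orders were thus opposite for TAC1 and PENK in both libraries. Nuclei with DRD2 were deeper than those without (medians 35466 against 29952 UMIs and 21949 against 16213). At 5000 UMIs per nucleus PENK was in 16.3% and 15.5% of nuclei with DRD2 and in 9.04% and 9.49% of those without, with overlapping exact intervals (9.63 to 25.2 against 7.37 to 10.9, and 9.27 to 23.6 against 7.73 to 11.5), and at 1000 UMIs the ratio was 0 and 1.20. TAC1 at 5000 UMIs was in 65.0% and 57.5% of nuclei with EBF1 and in 25.7% and 27.7% of those without. PDYN was more frequent with EBF1 here, but not at 5000 UMIs per nucleus, where it was in 0.380% and 1.20% of nuclei with EBF1 and in 0.451% and 1.32% of those without. Nuclei with neither marker (336 and 329) were mixed, with TAC1 in 42.9% and 43.8% and PENK in 46.1% and 34.0%. A few nuclei held both markers (21 and 38), with TAC1 in 71.4% and 76.3% and PENK in 14.3% and 18.4%.

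**Figure D5:**
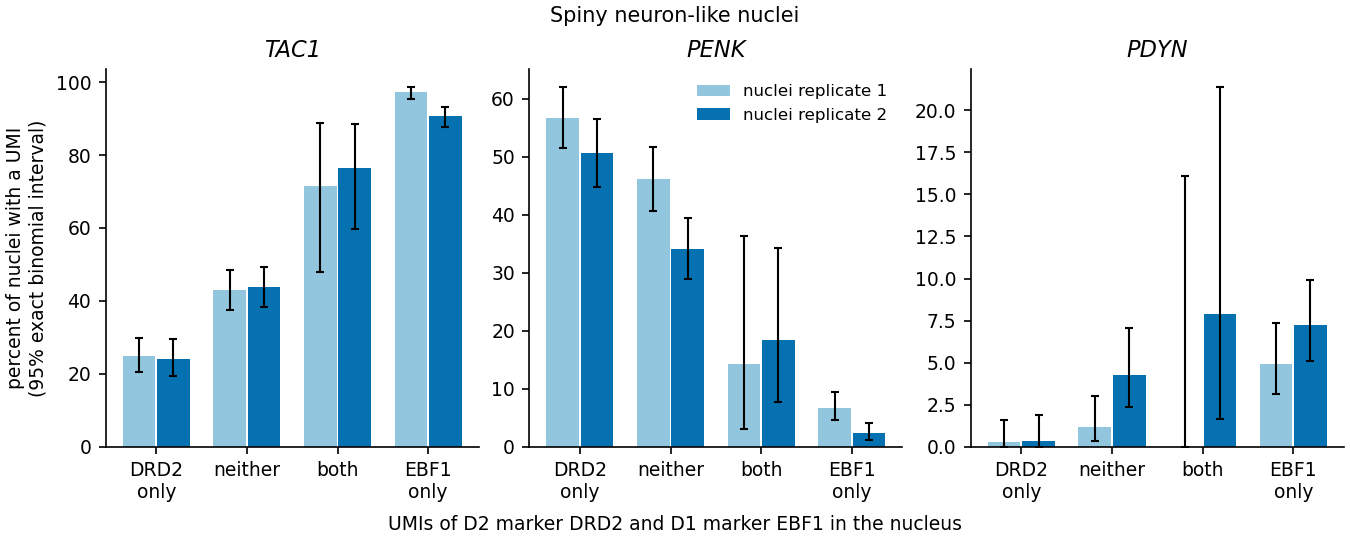
Percent of spiny neuron-like nuclei with a UMI of TAC1, PENK or PDYN, split by whether the nucleus held the D2 marker DRD2, the D1 marker EBF1, both or neither, with exact 95% binomial intervals. TAC1 reaches 97.3% and 90.7% in nuclei with EBF1 alone, where PENK is at 6.73% and 2.28%.

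Other markers of each type were rarer. The adenosine receptor gene ADORA2A, of D2 neurons, went with PENK: 51.8% and 57.8% of spiny neuron-like nuclei with it held PENK, against 31.7% and 20.5% of those without. Nuclei with ADORA2A were deeper in both libraries (35436.5 against 31256 and 24110.5 against 17191.5 UMIs). At 5000 UMIs the shares were 3 of 15 and 10 of 33 nuclei against 9.52% and 9.46%. GPR6, a rarer D2 marker, was found with PENK in 18 of 35 and 4 of 10 nuclei, and at 5000 UMIs in 0 of 10 and 0 of 2, too few to compare. SLC35D3, of D1 neurons, went with TAC1, which was found in 97.0% and 96.6% of nuclei with it and in 56.6% and 56.7% of those without. DRD2 and EBF1, each counted from 3 UMIs, were found together in 0 of 97 and 0 of 83 nuclei with DRD2 (upper bounds of the exact intervals 3.73% and 4.35%).

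The spiny neuron-like class consisted of 3 clusters, filled unequally by the libraries. Cluster 5 held 1109 and 268 nuclei, cluster 7 held 7 and 847, and cluster 18 held 41 and 25. Cluster 7 rested on 3 markers (PPP1R1B, PDE1B and SCN4B), was led by FSHR, MUC15 and OLFM4, and had a median of 15066 UMIs in replicate 2 against 40007 in cluster 5 of the same library. TAC1 was at 161 CPM in cluster 7 and 40.6 CPM in cluster 5 of replicate 2, and at 151 CPM in cluster 5 of replicate 1. The TAC1 level of replicate 2 thus lay mainly in a cluster that replicate 1 barely had, and the part of depth in this was not tested. PENK was at 27.0 CPM in cluster 7 and 17.1 CPM in cluster 5 of replicate 2, and at 27.1 CPM in cluster 5 of replicate 1. By the share of nuclei with a UMI the clusters were closer: TAC1 was found in 62.8% of cluster 7 and 54.1% of cluster 5 nuclei of replicate 2, and PENK in 23.8% and 28.0%.

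Cluster 18, with the D2 markers DRD2 and ADORA2A and led by ALK, was short of the precursor that goes with DRD2. DRD2 was found in 32 of 41 and 17 of 25 of its nuclei, but PENK in 3 of 41 (7.32%, interval 1.54 to 19.9) and 0 of 25 (upper bound 13.7%). TAC1 was found in 13 of 41 and 4 of 25, and PDYN in none. In the class as a whole, PENK was in 54.4% and 47.0% of nuclei with DRD2.

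Precursors were also found in unnamed clusters, of which 2 are described here. Cluster 14 (72 and 85 nuclei, with FOXP2, OTOF and ALK among its leading genes) held 340 and 119 TAC1 UMIs, or 4.72 and 1.40 per nucleus, with 6 and 6 PENK UMIs and no PDYN. Its TAC1 level per nucleus was below that of the spiny neuron-like class and above that of every glial class in both libraries. Its nuclei were deep (medians 26706.5 and 17340 UMIs), and in CPM TAC1 was at 149.7 and 67.5, against 146 and 106 in spiny neuron-like and 124 and 79.6 in microglia-like nuclei, so the order depended on the scale. Cluster 15 (66 and 60 nuclei) had oligodendrocyte markers but had among its leading genes ECEL1, SLC5A7, ACHE, CHGB and SCG2, which include cholinergic neuron and vesicle genes. It held 186 SST UMIs in 17 nuclei of replicate 1 and 243 in 11 nuclei of replicate 2, with 131 and 159 NPY, 19 and 26 CORT and 114 and 68 TAC1 UMIs. Of its SST UMIs, 173 and 235 were in the 6 and 4 nuclei with at least 10, of which 6 and 3 held NPY and 6 and 3 held CORT. No nucleus of it had at least 10 UMIs of both SST and TAC1, and its median total was low, at 1443.5 and 1429 UMIs.

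In whole cells, where no classes could be built, some single barcodes carried members of the interneuron set together. In whole cells replicate 1 the barcode richest in SST held 13 SST, 9 NPY and 2 CORT UMIs among 2025 UMIs and 264 genes. In replicate 2 one barcode held 16 SST, 3 NPY and 1 CORT UMIs, and another 10 SST and 11 NPY UMIs. The barcode richest in CORT there held 2 CORT UMIs, with 0 of SST and 0 of NPY. Of the 45 barcodes with CORT in replicate 2, 6 held SST and 2 held NPY. Over the barcodes of replicate 2, NPY was found in 14 of the 799 with SST (1.75%) and in 0.659% of those without, and CORT in 0.751% against 0.123%. SST was found in 3.11% of barcodes with TAC1 and in 2.44% of those without, a ratio of 1.27 against 2.66 for NPY with SST. The barcode richest in TAC1 had 8 TAC1 UMIs among 1150 in all, a depth far below that of spiny neuron-like nuclei.

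Other genes of the peptide pathway were read from the same fits, in lists by role; differences between the lists were not tested. Of 9 tested other peptide precursors, 6 were called higher in whole cells in the TMM fit (edgeR), with 22.4% of all genes so called and a median log2 fold change of -2.31, although 3 were called higher in nuclei with library size alone, where 79.4% of all genes were. CCK, the cholecystokinin precursor, was at 445 and 51.3 CPM in whole cells and 10.98 and 16.01 CPM in nuclei, a log2 fold change of -3.70 (edgeR adjusted p = 1.79e-06). AVP was at -3.62, POMC at -2.78 and NMB at -2.47, on 0 and 27, 0 and 12, and 1 and 6 UMIs in whole cells, and AVP had 104 and 2 UMIs in nuclei. NTS was at -1.84, a call lost with the block (adjusted p = 0.199), and VIP, which was not called, rested on 3 UMIs in whole cells and gets no fold change. Dense-core vesicle proteins also tended to whole cells with TMM, with 6 of 10 tested called higher there and 2 higher in nuclei, and with library size alone 7 were higher in nuclei and 0 in whole cells. VGF, a granin-like peptide precursor, was at -4.31 (edgeR adjusted p = 6.67e-07), on 0 and 55 UMIs in whole cells. CHGB was at -2.95 and SYT4 at -2.49, while SCG2, the most counted of the list in nuclei, was at -0.36 (adjusted p = 0.520). CHGA, at -1.99, and PTPRN, at -1.69, were called in the TMM fit without the block (adjusted p = 0.0548 and 0.107 with it), as was CADPS2, at 2.34 (0.0518 with it).

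Receptors and enzymes followed in the same way, and their counts with library size alone stand beside the 79.4% of all genes higher in nuclei on that scale. Of 6 tested receptors of the members' peptides, 3 were called higher in nuclei with TMM (29.8% of all genes were) and all 6 with library size alone. OPRM1, the mu opioid receptor gene, was at 0 and 8.76 CPM in whole cells and 198 and 174 CPM in nuclei, a log2 fold change of 4.43 (edgeR adjusted p = 3.25e-07), and OPRK1, the kappa opioid receptor gene, was at 0.44 (adjusted p = 0.457). Of the 8 processing enzymes 2 were called higher in nuclei and 1 in whole cells, while 6 and 0 were with library size alone. PCSK2, a protease that cuts precursors, was at 3.64, and PCSK1N, which encodes an inhibitor of the related protease PCSK1, was at -3.63. PAM, which amidates peptides, was at 1.53 (adjusted p = 0.0139) and lost its call with the block (adjusted p = 0.0688), and CPE at -0.48 and SCG5 at 0.39 were not called. Of 10 tested peptidases 6 were called higher in nuclei with TMM and 9 with library size alone, among them PREP at 3.21 and TRHDE at 3.00, while NPEPPS at 0.40 and LNPEP at 0.15 were not called with TMM. TACR1, OPRD1, RAB3B, DPP3 and DPP4 rested on 1 to 3 UMIs in whole cells, so no fold change is given for them.

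With the block, the counts higher in nuclei and in whole cells were 0 and 5 for other precursors, 3 and 0 for receptors, 1 and 1 for processing enzymes, 1 and 4 for vesicle proteins and 4 and 0 for peptidases, beside 20.4% and 14.2% of all genes. In NOS1 interneuron-like nuclei of replicates 1 and 2 the tachykinin receptor gene TACR1, which answers substance P, was at 557 and 464 CPM against 7.53 and 9.88 CPM in spiny neuron-like nuclei. The precursor protease gene PCSK1 was at 436 and 301 CPM there, against 0.368 and 0.827 CPM. The vesicle protein gene SCG2 was at 4266 and 3171 CPM, against 49.0 and 48.9 CPM. OPRM1 ran the other way, at 94.0 and 123 CPM in NOS1 interneuron-like nuclei and 268 and 206 CPM in spiny neuron-like nuclei.

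The genes whose levels followed a precursor most closely over clusters were read from 10145 genes, by Pearson's r of log2(CPM + 1) over 21 clusters of replicate 1 and 19 of replicate 2. Clusters of a library share its depth and its free RNA, so these values describe likeness only. For SST and NPY the closest gene was SCG2, with r of 0.84 and 0.82 for SST and 0.84 and 0.86 for NPY, followed by KIDINS220 (0.82 and 0.75, and 0.79 and 0.72). SCG2 was also closest to CORT (0.69 and 0.89), followed by PIGC and CHODL. For TAC1 the closest were NEFL (0.77 and 0.76), the neurotensin precursor NTS (0.75 and 0.92) and NOSIP. For PENK they were AFG3L2 (0.71 and 0.74), SEC62 and HTATIP2, and for PDYN they were SEC62 (0.77 and 0.72), UQCRH and TCAF1.

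The 2 nuclei libraries also differed in the balance of the precursors. Nuclei replicate 1 had 1.48 times the TAC1 CPM and 1.35 times the PENK CPM of replicate 2, but 0.412 times its PDYN, 0.883 times its SST, 0.574 times its NPY and 0.664 times its CORT. The NOS1 interneuron-like share of nuclei, 0.262% against 0.389%, moved in the same direction as SST, NPY and CORT. PDYN went against TAC1, with which it shares nuclei: per spiny neuron-like nucleus it was 0.0277 against 0.0535 while TAC1 was 5.14 against 2.36.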

How the data were processed

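The authors deposited raw UMI counts per gene and barcode, made with Cell Ranger 6.0.1 for whole cells and 7.0.0 for nuclei per the file headers. The submitters' processing notes also list Cell Ranger 2.1.1 and STAR 2.7.2a. The genome build, annotation and counting of introns are not given in the sources used here. Because 2 releases were used, preparation and software version cannot be told apart.

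The members and gene lists were chosen with earlier results of these data known. Library sums of the deposited counts, over every barcode, were tested with edgeR 4.0.16 (R 4.3.3: TMM, filterByExpr, glmQLFit and glmQLFTest, Benjamini-Hochberg adjustment over all tested genes, threshold 0.05), after a check on simulated data. Alternatives were DESeq2 1.42.0, other scalings and filters, a replicate block and each library left out. Same-numbered libraries share a pool by their titles. Their deviations from the group means correlated at -0.062 over 1765 genes with at least 10 counts.

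For classes, nuclei needed 200 detected genes and no more than 5% of UMIs from mitochondrial genes (8700 and 8388 passed). The 8% with the highest Scrublet doublet scores were removed, since Scrublet's own threshold called 390 and 0. The rest were scaled to 10000 UMIs and clustered in scanpy 1.11.5 (2000 variable genes, 30 components, 15 neighbours, Leiden resolution 1). A cluster was named from at least 3 fixed markers of 1 class, with no tie between classes. Its 10 leading genes could not hold more markers of another class than of its own. A cluster with few UMIs also needed a marker of its class among them. These naming rules were set after the data were seen. Between libraries, 2 to 87 barcodes were shared. Shares have exact Clopper-Pearson and levels exact Poisson 95% intervals. Pathway genes named are those of each fixed list with the most nuclear counts and the largest called changes, up to 4 each, while PCSK1 was named after its values were seen. The genes most like a member are the 3 with the highest lower r of the 2 libraries.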

Additional observations from a re-analysis of the deposited data

Results flagged for a closer look

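TAC1 changed in opposite directions in the 2 pools of sheep. Nuclei over whole cells, it stood at 1.26 on the log2 scale (TMM) in the pool of sheep 1 and 2 and at -2.50 in the pool of sheep 3 and 4. The first value rests on 9 TAC1 UMIs in whole cells replicate 1. On the scale of non-mitochondrial UMIs the values were 0.80 and -2.21. Each pool had 1 library of each preparation, so the difference between pools was not tested.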

How the results depend on the processing

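The count of 5 precursors called higher in whole cells became 3 with DESeq2 and its size factors, 0 with library size alone, 2 with the replicate block for the animal pool and 1 with barcodes of at least 200 genes, and ranged from 1 to 6 with a library left out. It was 5 without a filter on low counts and without mitochondrial genes. Over all genes the calls higher in nuclei and in whole cells were 4695 and 3536 as reported, 3225 and 2246 with the block and 12537 and 498 with library size alone. As shares of all tested genes these were 29.8% and 22.4% as reported, 26.1% and 17.8% with DESeq2, and 27.4% and 11.7% with barcodes of at least 200 genes. The falls to 3 and to 1 precursor thus went with fewer calls higher in whole cells over all genes. Scaling by library size turned the fold changes (log2) to 1.58 for TAC1, 0.0379 for PENK, 1.27 for SST, 2.19 for NPY and 1.62 for CORT. CORT was at 0.0506 (SE 0.98) with barcodes of at least 200 genes, on 3 UMIs in whole cells. With a library left out TAC1 ranged from -1.97 to 0.95, the highest without whole cells replicate 2. The causes were not tested. PDYN gave no value where whole cells held no PDYN UMI (at least 200 genes, and without whole cells replicate 2).

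Co-detection ratios, as means of the 2 nuclei libraries, kept their direction except for PENK with TAC1, which turned from 1.30 to 0.65 at 1000 UMIs per nucleus. CORT with NPY went to 12.7 at 1000 UMIs and 663 from 2 UMIs, NPY with SST to 3.26, 17.8 and, with up to 20% mitochondrial UMIs, 1.55, and PDYN with TAC1 to 6.17 at 1000 UMIs and gave no value from 2 UMIs. In spiny neuron-like nuclei the ratios for PENK by DRD2, TAC1 by DRD2, TAC1 by EBF1 and PENK by EBF1 (2.70, 0.40, 2.73 and 0.11) became 0.60, 0, 1.51 and 0 at 1000 UMIs. There the first was 0 and 1.20 in the 2 libraries and the third 2.04 and 0.980, so each lost its direction in 1 library. At 5000 UMIs, an alternative chosen after seeing the data like those that follow, they were 1.72, 0.287, 2.30 and 0.0414. From 2 UMIs TAC1 by DRD2, TAC1 by EBF1 and PENK by EBF1 were 0.0865, 3.47 and 0.0302. In cluster 5 alone PENK by DRD2 was 3.54, and in cluster 7 alone TAC1 by DRD2 was 0.448 and PENK by EBF1 0.0599. Without cluster 18 none of the 4 moved beyond the spread of the libraries.

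The share of UMIs in the main class was 78.5% for PENK and 66.0% for NPY with up to 20% mitochondrial UMIs. With the precursors allowed among the variable genes, spiny neuron-like shares fell to 2.07% (TAC1), 25.9% (PENK) and 1.67% (PDYN), with 419 nuclei keeping the name against 2297. The nuclei named before fell mainly into clusters of 692, 682, 476 and 419 nuclei with 0, 1, 2 and 3 spiny markers above the naming threshold, and 3 are needed. Depth limits PDYN and CORT most, with 0 and 2 UMIs in whole cells replicate 1.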
